A study of Mus musculus with 6 samples.

Results

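The genes of the NF-kB transcription factor subunits and of their inhibitors were followed here in the chromatin accessibility of mouse leukaemia cells. Peaks were taken as members when the peak table named Nfkb1, Nfkb2, Rel, Rela, Relb, Nfkbia, Nfkbib, Nfkbid, Nfkbiz or Tnfaip3 as the nearest gene and placed the peak within 100000 bp of that gene's start site. This gave 238 of 175929 peaks, of which 57 lay within 3000 bp of the start site and 181 further away. Nfkbia held 62 of them, Tnfaip3 48, Nfkb1 40, Nfkbiz 34, Nfkb2 25, Rela 10, Relb 6, Nfkbid 6, Rel 5 and Nfkbib 2. The cells were Lin- c-Kit+ GFP+ leukaemia cells sorted from spleen. They descend from fetal liver cells of Usp18+/f mice with a tamoxifen-inducible Cre that a retrovirus made to express AE9a, a short splice form of the AML1-ETO fusion, together with GFP, and they were carried in wild-type C57BL/6 recipients. All 6 libraries therefore share the oncogene, the Cre transgene and the floxed allele. In the 3 samples given corn oil the cells stayed Usp18+/f (oil replicates 1, 2 and 4), and in 3 given tamoxifen, which turns on the Cre, they became Usp18+/Δ (tamoxifen replicates 1, 3 and 4), with sorting 3 days after the first injection. Only the transplanted cells carry the Cre. Replicates are called biological, but the labels do not say that each is a separate mouse, so p-values measure the spread between these samples only. Tamoxifen was given to the Usp18+/Δ group alone, so the drug and the loss of 1 Usp18 allele cannot be told apart. Fewer cells with an open site and a less open site in each cell cannot be told apart either.

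NF-kB acts as a dimer of subunits that share a DNA-binding Rel homology domain. Inhibitors of the IkB family hold the dimers in the cytoplasm until a kinase complex, switched on by cytokine and pathogen receptors, marks the inhibitor for destruction. The freed dimers then induce genes of inflammation and survival, among them Nfkbia and Tnfaip3, whose products shut the pathway down again. USP18 restrains type I interferon signalling, and whether the accessibility of the NF-kB genes differs when 1 of its alleles is lost is the question the comparison addresses.

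NF-kB dimers bind a short palindromic site, here searched on both strands as GGGANNTTCC. In the central 200 bases of the member peaks 6 copies were found, each in a different peak, and 5 of them are printed because they mark where the pathway's own factors could read these genes. The windows below are from the mm10 genome, each 30 bases on the strand of the gene, 5′ to 3′, with the site in capitals.
Nfkb1, chr3:135691497-135691526, minus strand: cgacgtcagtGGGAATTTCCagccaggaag
Nfkbia, chr12:55491947-55491976, minus strand: ggtggggcacGGAAAGTCCCtgggcggctg
Nfkbiz, chr16:55838850-55838879, minus strand: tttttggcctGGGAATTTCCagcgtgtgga
Tnfaip3, chr10:19008565-19008594, minus strand: aagactttcaGGGATGTTCCcatatcatac
Tnfaip3, chr10:19008826-19008855, minus strand: agctaggagaGGAAAATCCCaggtccccac

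The promoter of Nfkbia, which encodes the main inhibitor IkBα, is the best known target of the pathway, and it held the same site outside the central part of its peak. RefSeq gives the 250 bases before its start site in GRCm38.p6 as follows, with the site, 29 bases before the start, in capitals.
Nfkbia promoter, chr12:55492648-55492897, minus strand: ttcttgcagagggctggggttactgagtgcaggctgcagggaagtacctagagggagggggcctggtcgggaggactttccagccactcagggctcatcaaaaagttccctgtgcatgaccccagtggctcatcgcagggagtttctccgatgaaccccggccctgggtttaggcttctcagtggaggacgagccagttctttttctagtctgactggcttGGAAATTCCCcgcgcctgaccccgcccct

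A single member peak passed the test described below, and it lies just past the 3′ end of Nfkbia. Its middle 200 bases in mm10 are shown because the main comparison turns on it. They hold no copy of the site.
Nfkbia 3′ peak, chr12:55488760-55488959, plus strand: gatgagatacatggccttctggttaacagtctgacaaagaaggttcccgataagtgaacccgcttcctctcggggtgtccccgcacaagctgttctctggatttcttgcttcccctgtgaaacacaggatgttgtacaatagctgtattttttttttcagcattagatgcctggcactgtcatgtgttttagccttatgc

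The libraries held 57.4 to 74.7 M tags each, with 17.5 to 21.1 M of them in peaks and a median of 45 to 57 tags per peak. Oil libraries differed from one another by 1.03 to 1.22 times the variance that counting alone gives. For the tamoxifen libraries the ratio was 1.48 between replicates 1 and 3, and 2.66 to 2.68 for the pairs with replicate 4, which stood apart. The start site peak of Kit, which marks the sorted cells, held 738 to 855 normalised tags per library, and the peaks nearest the start sites of Cd3e and S100a8, markers of T cells and mature myeloid cells, held 23.2 to 95.3. Over all peaks of the erythroid markers the sum was 6790.5 to 7082 in oil and 6197 to 6446 after tamoxifen. Over the markers of immature blasts it was 26576 to 27645 and 28192 to 31099. The T cell marker sum was 5422 to 5535 in oil and 5203 to 5364 after tamoxifen. Of its 58 peaks 33 lay at Cd247, whose gene sum had a log2 fold change of -0.17. Gene sums of Cd3d (0.68), Cd2 (0.49), Cd8a (0.39), Cd3e (0.35), Cd4 (0.30) and Cd5 (0.22) were higher after tamoxifen. Those of Cd3g (-0.36) and Lck (-0.20) were lower. For B cell markers the sums were 2807 to 2878 and 2631 to 2963, and for mature myeloid markers 1655 to 1723 and 1731 to 1779. The part of these differences in the results below was not tested. The peak at the Usp18 start site held 458, 415 and 440 normalised tags in oil and 440, 469 and 438 after tamoxifen, but accessibility there does not check the deletion.

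Accessibility of the NF-kB genes differed little between the groups, and the 1 peak that passed the test lay at an inhibitor, Nfkbia. Each peak was tested with DESeq2, and p-values were adjusted by the Benjamini-Hochberg method over all 175929 peaks. One member peak was higher after tamoxifen at an adjusted p under 0.05, where 1.22% of all peaks were, and 0 were lower, where 0.167% of all peaks were. No member peak passed with a fold change over 2, against 0.654% of all peaks. At an unadjusted p under 0.05 there were 12 higher and 2 lower member peaks, 14 of 238, while 9.02% of all peaks reached that level. The quasi-likelihood test of edgeR called 4 member peaks higher and 0 lower, where it called 2.40% of all peaks higher and 0.521% lower. The 3 tamoxifen libraries lay above the 3 oil libraries at 17 member peaks and below them at 13, both smaller shares than the 11.9% and 10.0% of all peaks.

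The log2 fold changes of the member peaks, tamoxifen over oil, ran from -0.68 to 0.87. Their median was 0.10, beside -0.00 for all peaks, and 158 of 238, or 66.4%, were above 0, beside 49.7% of all peaks. This was not particular to the members. Among other NF-kB pathway genes the share was 71.0% for receptors, 59.4% for other inhibitors, 59.4% for typical targets and 48.5% for kinases and adaptors. Among the marker lists it was 72.9% for immature blasts, 58.8% for mature myeloid cells, 48.8% for B cells, 34.5% for T cells and 30.2% for erythroid cells. The 152 peaks of the inhibitors had a median of 0.14 with 112 above 0. The 86 peaks of the subunits had a median of 0.02 with 46 above 0. Distal peaks had a median of 0.13 and those within 3000 bp of a start site 0.04. The tilt was not shared by all tamoxifen libraries. As log2 over the oil mean with 1 tag added, the median was 0.08, 0.07 and -0.01 in tamoxifen replicates 1, 3 and 4. In oil replicates 1, 2 and 4 it was 0.03, -0.01 and 0.02. Without tamoxifen replicate 1 the median over all member peaks was 0.04 and 135 were above 0, with 33 of 62 at Nfkbia and 33 of 48 at Tnfaip3.

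**Figure D1:**
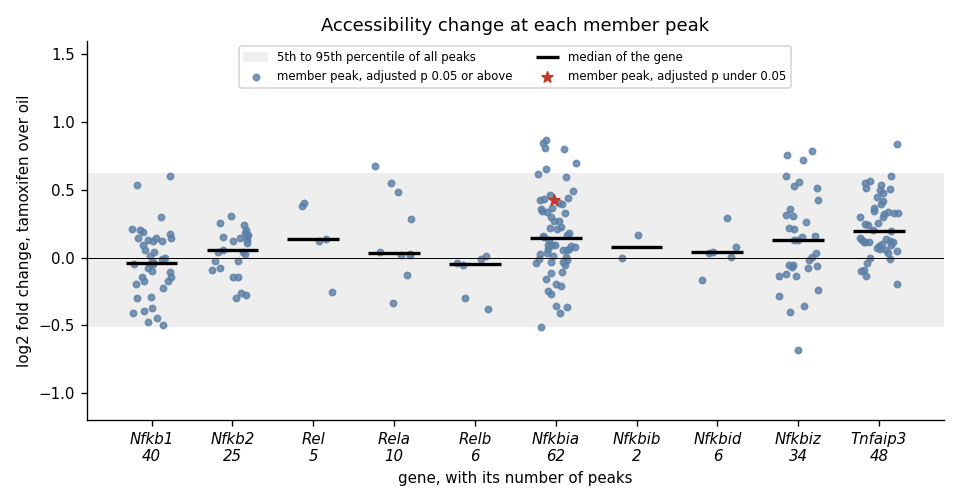
Log2 fold change, tamoxifen over oil, of each of the 238 member peaks (points), by gene, with a dash at each gene's median and a grey band from the 5th to the 95th percentile of all 175929 peaks (-0.50 to 0.62). Most points lie inside the band, 11 lie above it and 2 below, and the star is the Nfkbia peak that passed the test.

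Among the subunits, no peak of Rela, Rel, Relb, Nfkb1 or Nfkb2 passed. Rela (19:5637483-5648130, plus strand) encodes p65, the subunit with the main activating domain. Its start site peak held 557, 519 and 488 normalised tags in oil and 548, 552 and 480.0 after tamoxifen. The groups overlapped, with a log2 fold change of 0.02. The Rela peak with the smallest p lay in intron 8, with 28.7, 22.9 and 33.2 tags in oil and 42.5, 44.0 and 49.4 after tamoxifen. All 3 tamoxifen libraries were above all oil libraries there, but the difference of 0.68 on the log2 scale did not pass (DESeq2 adjusted p = 0.455).

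Rel (11:23736847-23770970, minus strand) encodes c-Rel, a subunit best known from lymphocytes. Of its 5 peaks 4 were above 0. The start site peak held 497, 446 and 409 tags in oil and 494, 505 and 474 after tamoxifen, a log2 fold change of 0.13. A peak 667 bp past the start held 117, 126 and 106 tags in oil and 153, 177 and 126 after tamoxifen. Tamoxifen replicate 4 only equalled the highest oil library there, and the adjusted p was 0.471 with DESeq2. Relb (7:19606217-19629438, minus strand) encodes the subunit of the alternative pathway. At its start site 518, 523 and 474 tags in oil stood beside 502, 523 and 434 after tamoxifen, and 665 bp into the gene 1544, 1491 and 1411 beside 1498, 1584 and 1403. These 2 peaks overlapped between the groups, with log2 fold changes of -0.05 and 0.01. Of the 6 Relb peaks 1 was above 0.

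Nfkb2 (19:46304320-46312385, plus strand) encodes p100, the precursor of p52. Its start site peak held 683, 676 and 620.4 tags in oil and 665, 744 and 626 after tamoxifen, a log2 fold change of 0.04. The libraries were interleaved. Its promoters held strict sites too, outside the central part of any peak, and RefSeq places them before alternative start sites.
Nfkb2, chr19:46305449-46305478, plus strand: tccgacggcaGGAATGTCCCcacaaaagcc
Nfkb2, chr19:46305695-46305724, plus strand: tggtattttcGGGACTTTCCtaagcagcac

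Nfkb1 (3:135584655-135691547, minus strand) encodes p105, the precursor of p50, and had 17 of 40 peaks above 0, or 42.5%, beside 49.7% of all peaks. The peak at its start site, which holds the site printed above, had 304, 287 and 265 tags in oil and 388, 314 and 263 after tamoxifen. Tamoxifen replicate 1 was the highest and replicate 4 the lowest, with a log2 fold change of 0.17 (SE 0.14). Inside intron 6 a peak at 3:135631789-135632199 held 160.5, 143 and 172 tags in oil and 111, 94.1 and 138 after tamoxifen. All tamoxifen libraries were below all oil libraries there, and the value of -0.47 on the log2 scale (SE 0.18) did not pass (DESeq2 adjusted p = 0.24). A second intron 6 peak, starting at 135641185, held 120.2, 103 and 114 tags in oil and 57.0, 88.6 and 92.6 after tamoxifen, a log2 fold change of -0.50 (SE 0.21, DESeq2 adjusted p = 0.371). Its neighbour from 135641555 held 109, 83.4 and 116 in oil and 58.5, 59.6 and 116 after tamoxifen, where replicate 4 matched the highest oil library. Without tamoxifen replicate 4, the peaks from 135631789 and 135641555 were lower at adjusted p = 0.0313 and 0.0334 with DESeq2. In that fit 2508 of all 175929 peaks were called lower.

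Among the inhibitors, Nfkbia (12:55489410-55492647, minus strand) gave the only call. The passing peak, 12:55488653-55489066, lay 3788 bp past the start site and 551 bp past the 3′ end of the gene. It held 228, 217 and 228 normalised tags in oil and 308, 308 and 285 after tamoxifen, so every tamoxifen library lay above every oil library. The means were 224 ± 6.48 and 300.3 ± 13.3 (SD, n = 3 each), which is 0.42 on the log2 scale (SE 0.12), and the adjusted p was 0.0465 by DESeq2 and 0.00886 by edgeR. The call did not survive the loss of a library in 5 of 6 cases: without oil replicate 1, 2 or 4 or tamoxifen replicate 1 or 3 the DESeq2 adjusted p was 0.278 to 0.380. Without tamoxifen replicate 4 it was 0.0201, and the log2 fold change stayed between 0.40 and 0.46 in all 6 fits. Over all peaks the 5 fits that lost the call had 629 to 1078 calls. With all libraries there were 2448 calls, and without tamoxifen replicate 4 there were 6529.

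Other Nfkbia peaks around it had similar values without passing. The peak at 12:55488200-55488537 held 158, 141 and 162 tags in oil and 232, 225 and 179 after tamoxifen, a log2 fold change of 0.46 (DESeq2 adjusted p = 0.123, edgeR 0.0376). A peak in the last intron, at 12:55490091-55490626, held 148, 147 and 159 in oil and 203, 219 and 194 after tamoxifen, a log2 fold change of 0.43 (DESeq2 adjusted p = 0.136, edgeR 0.0306). Neither overlapped between the groups. The Nfkbia start site peak in exon 1 held 1093, 1089 and 992 tags in oil and 1245, 1136 and 1007 after tamoxifen. There the groups overlapped, since tamoxifen replicate 4 lay below 2 oil libraries, and the log2 fold change was 0.09 (SE 0.09).

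Grouping the Nfkbia peaks by position showed where they differed. These stretches were drawn after the values had been seen, so their sums are given with no test. Upstream of the gene 16 peaks summed to 1255, 1293 and 1274 normalised tags in oil and 1240.1, 1268 and 1271 after tamoxifen. The 3 peaks inside the gene summed to 258, 273 and 300.1 in oil and 360.0, 410.0 and 330.1 after tamoxifen. The 8 peaks in the first 5 kb past the 3′ end summed to 1694, 1555 and 1698 in oil and 2471, 2000.0 and 1734 after tamoxifen. In both of these the 3 tamoxifen sums were the 3 highest, with the mean 0.40 and 0.33 above oil on the log2 scale, whereas upstream the libraries were interleaved. In the first 5 kb past the end, too, tamoxifen replicate 1 weighed most. It was the highest library in 7 of the 8 peaks, and the replicate 4 sum lay little above the highest oil sum.

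From 5 to 20 kb past the 3′ end 1 library set the difference. The 17 Nfkbia peaks there summed to 1469, 1437 and 1242 tags in oil and 3134, 1529 and 1075 after tamoxifen, with tamoxifen replicate 1 far above the rest and replicate 4 the lowest. Replicate 1 was the highest library in 17 of the 17 peaks and replicate 4 the lowest in 11. The peak from 55480456, for example, held 68.9, 74.1 and 46.6 tags in oil and 215, 85.8 and 45.2 after tamoxifen. The log2 fold change of the sum was 0.47, with -0.09 without tamoxifen replicate 1 and 0.76 without replicate 4. Further out, 15 peaks over 20 kb past the end summed to 1016, 1059 and 1059 in oil and 987, 949 and 1149 after tamoxifen, a log2 fold change of -0.02.

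Tnfaip3 (10:19000910-19015657, minus strand) encodes A20, a ubiquitin-editing enzyme that ends signalling upstream of the IkB kinase. Of its 48 peaks 41 were above 0, with a median of 0.20, and none passed. Its start site peak held 892, 861 and 805 tags in oil and 841, 881 and 830.1 after tamoxifen, a log2 fold change of -0.00. The Tnfaip3 peak with the smallest p, from 19017109, held 84.4, 59.5 and 65.0 tags in oil and 111, 73.0 and 111 after tamoxifen. Tamoxifen replicate 3 lay between oil libraries there, and the difference of 0.51 did not pass (DESeq2 adjusted p = 0.414). The intron peaks that hold the printed sites had 52.4, 28.3 and 31.8 tags in oil and 56.1, 59.1 and 50.7 after tamoxifen for the one from 19008392, and 13.8, 14.6 and 19.7 and 18.4, 37.3 and 29.8 for the one from 19008659. Oil and tamoxifen libraries overlapped in both, and the log2 fold changes of 0.55 and 0.84 did not pass (DESeq2 adjusted p = 0.60 and 0.543).

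Past the 3′ end of Tnfaip3 the tamoxifen libraries also lay apart. The 10 peaks in the first 5 kb summed to 456, 413 and 449 tags in oil and 547, 569 and 444 after tamoxifen. The 10 peaks from 5 to 20 kb summed to 369.5, 401 and 387 in oil and 707, 552 and 190.4 after tamoxifen. Tamoxifen replicate 4 was the lowest library in 10 of those 10 peaks, replicate 1 the highest in 7 and replicate 3 in the other 3. The oil libraries lay close together, and the tamoxifen libraries lay on both sides of them. The log2 fold change of that sum was 0.32, -0.06 without replicate 1 and 0.71 without replicate 4. Inside the gene 12 peaks summed to 504, 406 and 472 in oil and 463, 578 and 637 after tamoxifen.

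**Figure D2:**
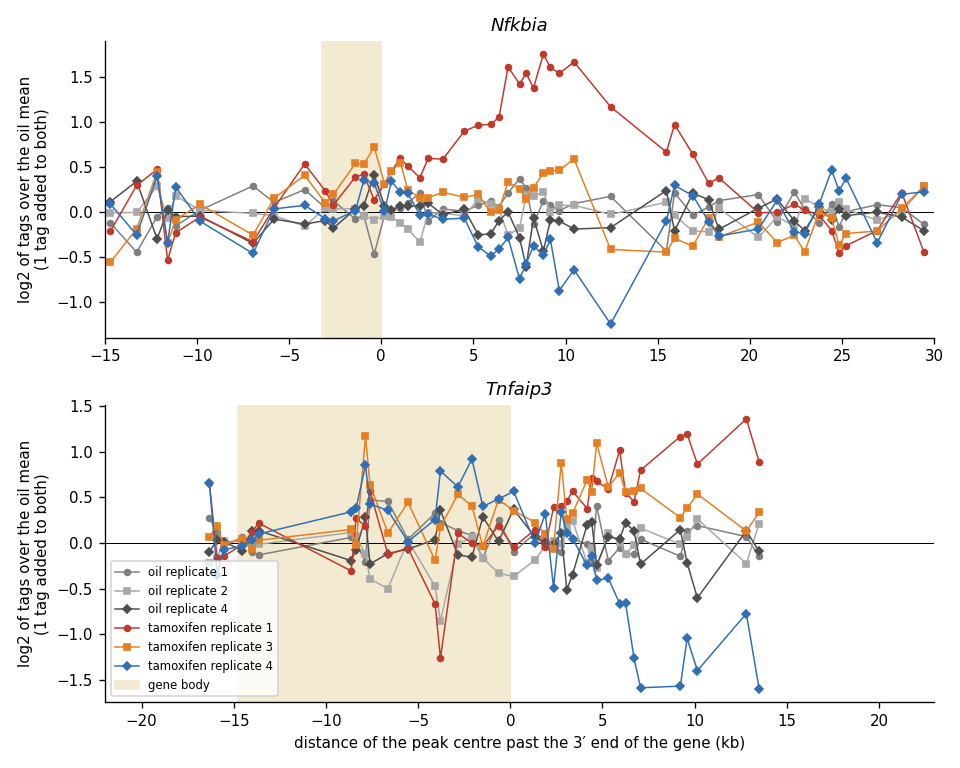
Normalised tags of each Nfkbia and Tnfaip3 peak in each library as log2 over the mean of the oil libraries with 1 tag added (y axis), against the distance of the peak past the 3′ end of the gene in kb (x axis), with the gene body shaded. Past both genes the line of tamoxifen replicate 1 runs above the oil libraries between 5 and 20 kb, and that of tamoxifen replicate 4 runs mostly below them.

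To place these stretches, the same 5 to 20 kb was summed for each of 644 genes with at least 5 peaks there. This stretch and tamoxifen replicates 1 and 4 were chosen after their values were seen, so the ranks only describe them. In tamoxifen replicate 1 the Nfkbia stretch held 2.32 times the mean of the other 5 libraries, rank 2 from the top, and the Tnfaip3 stretch 1.86 times, rank 4. In tamoxifen replicate 4 the Tnfaip3 stretch was at 0.394 times the mean of the other 5, rank 2 from the bottom, and the Nfkbia stretch at 0.610 times, rank 8. The first 5 kb past the 3′ end, ranked among 534 genes, was less extreme. There Nfkbia and Tnfaip3 had ranks 20 and 80 from the top in tamoxifen replicate 1. In replicate 4 they had ranks 156 and 144 from the bottom. The stretch from 5 to 20 kb summed over all genes differed by 0.01 on the log2 scale between the groups. That sum pools 10405 peaks, so it does not measure the spread between libraries at 1 locus. Of the 304 peaks of the listed heat shock genes 76 were lower after tamoxifen, and no member peak lay within 50000 bp of such a gene.

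**Figure D3:**
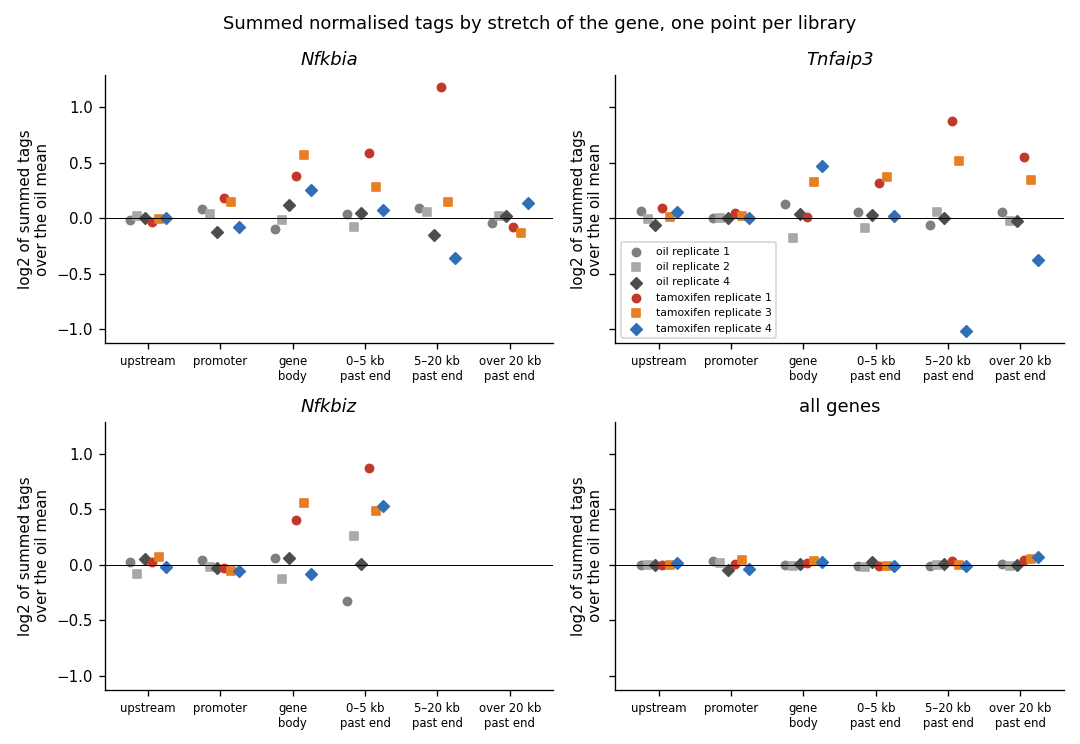
Sums of normalised tags over stretches of the Nfkbia, Tnfaip3 and Nfkbiz loci and of all genes, as log2 over the mean of the oil libraries, with 1 point per library. From 5 to 20 kb past Nfkbia and Tnfaip3 the oil points lie close together and the tamoxifen points spread widely. For all genes the libraries lie together in each stretch, but those sums pool many more peaks, 10405 from 5 to 20 kb.

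Nfkbiz (16:55811375-55838899, minus strand) encodes IkBζ, a nuclear member of the family that helps p50 induce secondary response genes. Its start site peak held 949, 932 and 874 tags in oil and 903, 949 and 874 after tamoxifen, a log2 fold change of -0.02. A peak in the 3′ untranslated region, 16:55811877-55812318, held 60.7, 44.9 and 53.8 tags in oil and 107, 104 and 62.9 after tamoxifen. All tamoxifen libraries lay above all oil libraries there, replicate 4 by little. The log2 fold change was 0.78 (SE 0.25, DESeq2 adjusted p = 0.0973, edgeR 0.0429).

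As at Nfkbia, the Nfkbiz peaks just past the 3′ end shared that direction. The 3 within 5 kb summed to 73.4, 109.7 and 92.3 tags in oil and 168, 128 and 132 after tamoxifen, a log2 fold change of 0.64 with the 3 tamoxifen sums highest. The 5 peaks around its start sites summed to 1930.4, 1849.8 and 1830.4 in oil and 1835, 1800.0 and 1798 after tamoxifen, a log2 fold change of -0.05. The 16 peaks inside the gene summed to 593, 519.7 and 594 in oil and 753, 836 and 539 after tamoxifen, where replicate 4 fell among the oil libraries. Not every member shared the direction just past the 3′ end. The 8 Nfkb2 peaks in the first 5 kb there summed to 629, 672 and 644 in oil. After tamoxifen they summed to 685, 604 and 613, a log2 fold change of -0.03. Rela and Nfkbid had 1 peak each in that stretch, with log2 fold changes of 0.03 and 0.29.

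Nfkbib (7:28758251-28767512, minus strand), which encodes IkBβ, and Nfkbid (7:30421732-30428746, plus strand), which encodes the nuclear protein IkBNS, had few peaks. The Nfkbib start site peak held 636, 609 and 566 tags in oil and 621, 626 and 562 after tamoxifen. The Nfkbid peak closest to a start site was weak, with 27.6, 28.8 and 33.6 in oil and 27.1, 28.4 and 35.4 after tamoxifen. Both overlapped fully, with log2 fold changes of -0.00 and 0.01. Another Nfkbid peak, from 30431894, held 87.7, 84.8 and 102 in oil and 120.3, 126 and 91.7 after tamoxifen (log2 fold change 0.29, DESeq2 adjusted p = 0.772).

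Per length, the start site peaks ranked in oil from Nfkbid, at 141 ± 15 normalised tags per kb (SD, n = 3), through Nfkb1 at 1229.6 ± 84 and Rel at 1720.3 ± 170.0, to Nfkb2 at 2831 ± 147, Nfkbib at 3004 ± 176 and Nfkbiz at 3156 ± 134. Nfkbia (2281 ± 123), Relb (2393 ± 129), Tnfaip3 (2408 ± 125) and Rela (2594 ± 170.0) lay between them. From Nfkbia upward, neighbours in this order differed by less than the sum of their SDs, while Nfkbid, Nfkb1 and Rel each differed from the next by more. The place of Nfkbid rests on the start chosen, the one with the closest peak: at its other annotated starts, peaks from 30421568 and 30422213 held 1631 and 1913 tags per kb in oil. After tamoxifen the lowest and highest were again Nfkbid, at 142 ± 21, and Nfkbiz, at 3122 ± 129.6.

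Summed over all peaks of a gene and fitted across 19781 genes, 0 of the 10 members differed between the groups, where 4.98% of all genes were higher and 1.02% lower at a DESeq2 adjusted p under 0.05. Without adjustment 0 reached 0.05 with DESeq2, where 17.8% of all genes did, and 1, Rel, with edgeR, where 25.8% did. Values here are normalised with the size factors of the gene fit. The Nfkbia sum was 7491, 7409 and 7341 in oil and 10074, 7872 and 7258 after tamoxifen, so the groups overlapped through replicate 4. Its log2 fold change was 0.18 (95% interval -0.11 to 0.47), the widest interval among the 10 genes.

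The Rel sum was 732, 702 and 675 in oil and 797, 831 and 729 after tamoxifen, a log2 fold change of 0.16 (95% interval -0.01 to 0.33, DESeq2 adjusted p = 0.307). For Tnfaip3 it was 5541, 5329.8 and 5436 in oil and 6029.8, 5724 and 5500.5 after tamoxifen, a log2 fold change of 0.08 (95% interval -0.02 to 0.18, DESeq2 adjusted p = 0.431). Only replicates 1 and 3 lay above all oil libraries for Tnfaip3, and replicate 4 lay below the highest of them. The Nfkb1 sum was 3930.3, 3853 and 4116 in oil and 3674, 3684 and 4023 after tamoxifen, a log2 fold change of -0.06 (95% interval -0.17 to 0.05). The other 6 genes had log2 fold changes between -0.04 and 0.05. Over all 238 member peaks the sum, on the scale of the peak fit, was 28982, 28084 and 27674 in oil and 32168, 30002 and 27925 after tamoxifen, a difference of 0.09 on the log2 scale. The groups overlapped, and a two-sided exact permutation test gave p = 0.3, where 3 against 3 libraries cannot go below 0.1.

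**Figure D4:**
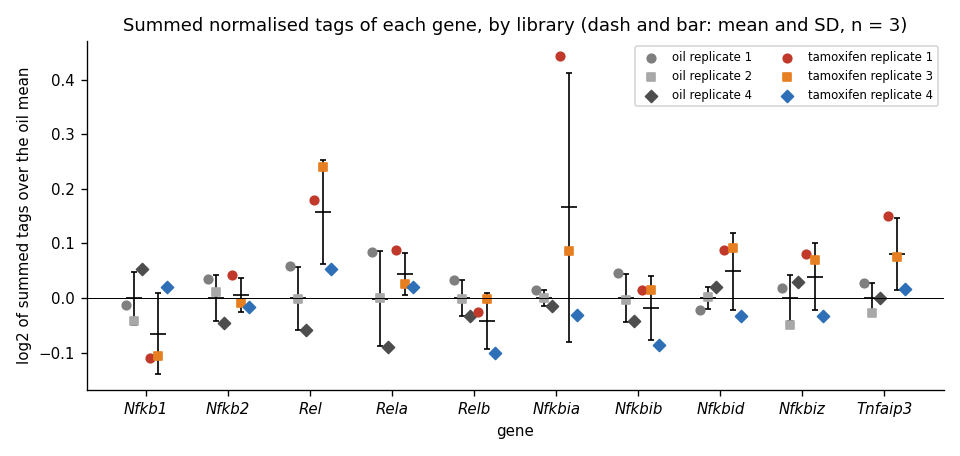
Tags summed over all peaks of each member gene, as log2 over the mean of the oil libraries, with 1 point per library and the mean ± SD of each group of 3. The Nfkbia point of tamoxifen replicate 1 stands highest of all. At Rel tamoxifen replicates 1 and 3 lie above the oil points and replicate 4 lies among them. For the remaining genes the groups lie close together.

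The shares of peaks with a motif are given as a description. The site GGGANNTTCC lay in 6 of 238 member peaks, or 2.52%, beside 0.926% of 175738 peaks whose central 200 bases were read, and in 3 of 12 promoters of 300 bases, beside 1.47% of 32851 promoters. RefSeq promoters were matched for 7 of the 10 members, not for Nfkb1, Relb or Nfkbiz, and some members have several. The looser NF-kB consensus, which takes in the strict site, lay in 7.14% beside 5.03% of peaks. The AP-1 site TGANTCA lay in 9.24% beside 6.61% and the interferon-stimulated response element core GAAANNGAAA in 2.52% beside 2.03%. The 6 peaks with the strict site had log2 fold changes from -0.06 at Nfkbiz to 0.84 at Tnfaip3, and none passed.

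The rest of the pathway was read from lists of receptors, kinases and adaptors, other inhibitors, and typical target genes, 846 peaks in all, of which 11 (1.30%) were higher and 6 (0.709%) lower at a DESeq2 adjusted p under 0.05. Among all peaks 1.22% were higher and 0.167% lower, so the share of higher peaks was near that of peaks in general. Among receptors 2 of 62 peaks were higher and 0 lower, both at Tnfrsf11a, the gene of the receptor RANK. The first, from 1:105804348, held 57.9, 50.2 and 51.5 tags in oil and 129, 99.2 and 122 after tamoxifen, a log2 fold change of 1.14. Among kinases and adaptors 2 of 274 were higher and 0 lower, at Map3k8 and Traf6. Of the other inhibitors 1 of 192 was higher, at Zc3h12a, which encodes the RNA-degrading protein Regnase-1 (160, 145 and 168 tags in oil, 245, 286 and 204 after tamoxifen).

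The 6 lower peaks were all assigned to Nfkbie, the gene of IkBε, which was kept out of the members because its peaks lie downstream of the heat shock gene Hsp90ab1. Its 12 peaks lay 8353 to 14997 bp past the 3′ end of that gene. Typical targets had 6 of 318 peaks higher and 0 lower, at Ccl5 (2 peaks), Lta, Il6, Cd44 and Irf1. The Ccl5 peak from 11:83550130, at the gene of a chemokine, held 40.8, 32.7 and 42.1 tags in oil and 90.4, 120.3 and 67.5 after tamoxifen, a log2 fold change of 1.25. That of Cd44, an adhesion receptor gene, held 38.6, 36.6 and 56.4 in oil and 106, 149 and 78.7 after tamoxifen, a log2 fold change of 1.32. In each of these named peaks the groups did not overlap, but the peaks were named because they had passed the test. Over all 846 peaks of the lists, the 3 tamoxifen libraries lay above the oil libraries at 110 (13.0%). They lay below them at 70 (8.27%). Among all peaks the shares were 11.9% and 10.0%. Of 78 gene sums on these lists 6 (7.69%) were higher and 1 (1.28%) lower, beside 4.98% and 1.02% of all genes. Ccl5 (1.27), Tnfrsf11a (0.62), Il1r1 (0.24), Map3k8 (1.00), Zc3h12a (0.23) and N4bp1 (0.17) rose and Nfkbie (-0.67) fell, given as log2 fold changes, at DESeq2 adjusted p under 0.05.

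**Figure D5:**
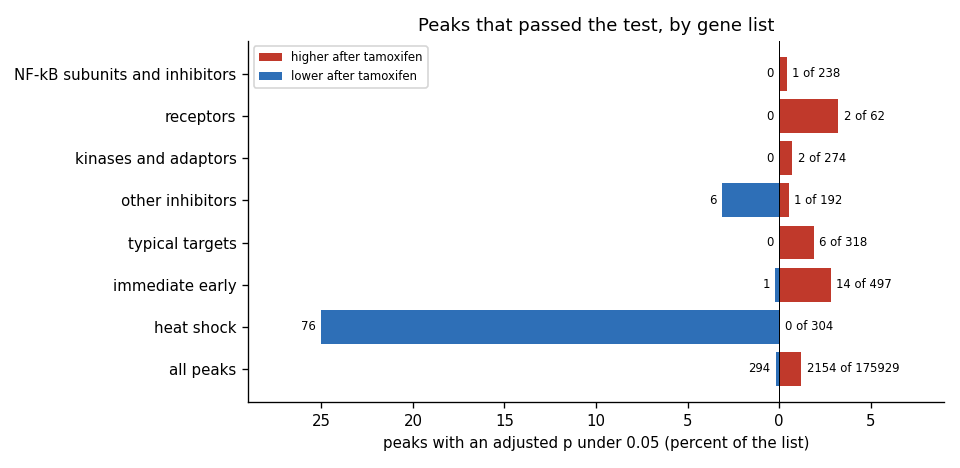
Percent of the peaks of each gene list that passed the DESeq2 test higher (to the right) or lower (to the left) after tamoxifen, with all 175929 peaks for reference. Of the 238 member peaks 1 is higher and 0 are lower, and the heat shock genes stand out with 76 of 304 peaks lower.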

How the data were processed

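Chromatin accessibility was measured by ATAC-seq in 6 libraries, 3 per group. Per the study methods and the file headers, the authors aligned to mm10 with Bowtie2, called peaks with HOMER, merged the lists of both groups and deposited, per peak and library, estimated counts, that is tags without adjustment for depth, at most 3 per position, in steps of 0.5. Versions are not given in the sources used here, and no Tn5 shift is stated. Tags were rounded to whole numbers and normalised with size factors. The study tested distal peaks with DESeq2. Here DESeq2 1.42.0 in R 4.3.3 (Wald test, alpha 0.05) was fitted over all 175929 peaks and over sums for 19781 genes, with edgeR 4.0.16 as an alternative. The script was tested on simulated data. The member total was compared with an exact permutation test on log2 sums (SciPy 1.17.1). Named peaks were the start site peak and the peak of smallest p of each gene, peaks that passed, and others chosen after their values were seen. The members and lists were chosen with earlier results of these data known. Gene positions are from GENCODE on mm10. Depth gave a median of 45 to 57 tags per peak, and intervals cover the spread of 3 libraries. Other size factors, a low tag filter of 20, peak subsets, a replicate block and leaving out each library were tried. Some items are not reported here.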

Additional observations from a re-analysis of the deposited data

How the results depend on the processing

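The number of member peaks called higher, 1, was 0 with size factors from total tags in peaks, 0 with distal or proximal peaks alone, 0 at a fold change over 2, 0 with the replicate block, 2 at an adjusted p under 0.1 and 4 with edgeR, and ran from 0 to 5 when single libraries were left out. The 5 came without tamoxifen replicate 4, where 2.29% of all peaks were called higher. That setting added 3 Nfkbia peaks, from 55488200, 55485688 and 55479583, and the Nfkbiz peak from 55811877. The number called lower, 0, ran from 0 to 2, the 2 being the Nfkb1 intron peaks. These also came without tamoxifen replicate 4, where 2508 of all 175929 peaks were called lower. The number of called peaks on the other pathway lists, 17, was 36 with edgeR, 9 with distal and 6 with proximal peaks alone, 10 at a fold change over 2, 1 with the block, and 5 to 41 without single libraries. The median log2 fold change of the member peaks was 0.0573 with proximal peaks alone, 0.0472 with the block and 0.0437 to 0.10 without single libraries, and the difference of the member total was 0.08 with the block and 0.04 to 0.14 without single libraries. No setting called a member gene sum. The passing Nfkbia peak had an adjusted p of 0.0853 with total tags in peaks, 0.176 with distal peaks alone and 1.00 with the block (DESeq2), and its log2 fold change stayed between 0.38 and 0.46. Leaving out single libraries, the log2 fold change of the stretch from 5 to 20 kb ran from -0.0859 to 0.755 at Nfkbia and from -0.0562 to 0.707 at Tnfaip3, lowest without tamoxifen replicate 1 and highest without replicate 4. The causes were not tested.

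Replicate numbers 1 and 4 occur in both groups, and the correlation of their deviations was -0.0486 and 0.0641. The oil libraries differed by little more than counting gives, so these values cannot show whether the numbers pair the samples. Over all peaks the calls numbered 2448 (88.0% higher), 5136 with edgeR, 6529 (61.6% higher) without tamoxifen replicate 4 and 52 (36.5% higher) with the block. When any other single library was left out they numbered 629 to 1078.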

Other observations

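Among the 644 genes with at least 5 peaks between 5 and 20 kb past their 3′ end, the highest tamoxifen replicate 1 value relative to the mean of the other 5 libraries was at Btg1 (2.78 times), an antiproliferative gene, and the third highest at Cited2 (1.89 times), a transcriptional coregulator gene. Both were chosen after their values were seen. In tamoxifen replicate 4 the lowest value was again at Btg1 (0.308 times). Nfkbia and Tnfaip3 ranked beside them, as given above, and the cause was not tested.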
